A study of Zea mays with 18 samples.

Results

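The 100 genes with the most even expression across maize roots were described over 18 RNA-seq libraries. The deposited tables hold 41632 genes, of which 5443 had a mean of at least 50 CPM (the share of a library's counts that fell on a gene, scaled to one library size), and 5343 remained after the 100 genes with the highest mean FPKM (fragments scaled by gene length and library depth) were left out. The 100 genes were those among the 5343 with the lowest coefficient of variation (CV, the SD as a percentage of the mean) of CPM over the libraries. The CPM of all 18 libraries therefore chose the genes, and the low CV itself is a description of how they were chosen. The level minimum was a mean over all libraries, which a gene that is high in a single group can also reach. Among the 100 genes the lowest CPM in any library was 44.1, so none of them passed through a single group. The other genes at the level minimum included genes at 0 CPM in a library.

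The study compared roots of 3 maize genotypes under low and high nitrate, and its title presents ZmNRL1, a protein with DUF630 and DUF632 domains, as a positive regulator of the response to nitrogen stress. Seedlings 10 days old were held for 48 h in modified Hoagland solution, a mineral nutrient solution for growing plants without soil, with 0.15 mM nitrate (low) or 15 mM nitrate (high). The genotypes were the inbred line B73, used as wild type, zmnrl1-m, labelled a mutant, and ZmNRL1-OE, labelled an overexpression line, with 3 libraries in each of the 6 groups. Nothing in the labels says that the 3 repeats of a group were separate plantings, so p-values measure the spread between these libraries. The kind of mutation, the promoter of the overexpression construct and the number of independent lines are not given in the labels.

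A gene whose transcript level holds steady across treatments serves as an internal reference, against which the transcripts of other genes are scaled in quantitative PCR. In plants such reference genes are often taken from actin, tubulin, ubiquitin or elongation factor families, and their steadiness has to be checked in each tissue and treatment. Nitrate is both a nutrient and a signal for roots, and its supply changes the transcription of transport and assimilation genes within hours. Genes are given by identifier, because 0 of the identifiers matched RefSeq's annotation of NAM-5.0, which lists 49888 genes. Names, roles, positions, sequences and markers of root or leaf tissue were therefore not analysed here, and neither was the level of ZmNRL1 in the lines.

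Library totals lay between 21905877 and 39003607 counts. The 100 genes had between 1057 and 14377 counts in any library, and together they took 1.11% ± 0.0126 of the counts of a library (SD, n = 18), with 1.08% as the lowest and 1.13% as the highest share. CPM is a share of the RNA sequenced, so a steady CPM does not show a steady number of transcripts per cell, and in whole roots fewer cells of a type and less RNA per cell cannot be told apart.

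The CV of the 100 genes ran from 1.82% to 4.97%, with a median of 4.36%, where the other 5243 genes at the level minimum had a median of 15.3% and reached 150.1%. In 84 of the 100 genes the highest library stood less than 1.2-fold above the lowest, and in the remaining 16 the ratio reached at most 1.23. Of the other 5243 genes, 33 had a ratio under 1.2, and 1882 (35.9%) had a ratio of at least 2 or a library at 0. These values follow from the choice. At its edge, the last gene taken was Zm00001d007951 with a CV of 4.97% and a mean of 86.6 CPM, preceded by Zm00001d031707 with 4.91%, and the first genes left out were Zm00001d034886 with a CV of 4.98% and Zm00001d002366 with 4.98%. The 100 genes are thus the low end of a continuous range.

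**Figure D1:**
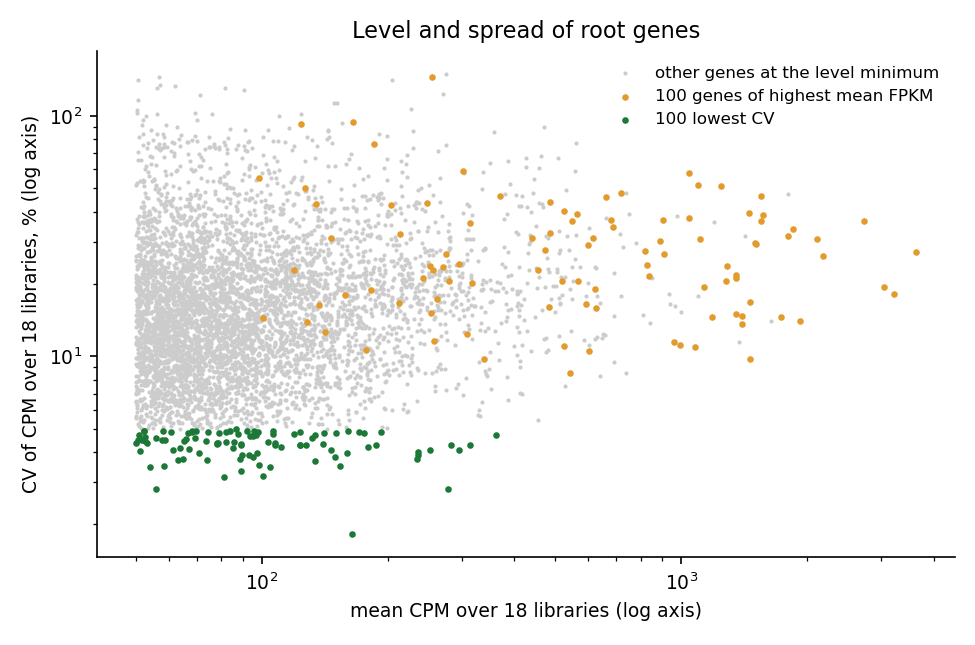
Mean CPM (x, log axis) against the CV of CPM over 18 libraries in percent (y, log axis) for the 100 chosen genes (green), the 5243 other genes at the level minimum (grey) and the 100 genes of highest mean FPKM (orange). The chosen genes lie at or below a CV of 4.97% over a range of 50.1 to 361 CPM, and none of the orange genes lies below 8.55%.

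Zm00001d024855 was the steadiest gene, with a mean of 164.1 ± 2.98 CPM (SD, n = 18) and a CV of 1.82%. In B73 it stood at 161.2, 163.4 and 169.5 CPM at low nitrate and at 158.7, 166.5 and 165.4 CPM at high nitrate. In zmnrl1-m the values were 165.2, 164.7 and 165.0 CPM at low and 161.2, 161.5 and 163.2 CPM at high nitrate. In ZmNRL1-OE they were 161.5, 165.1 and 164.3 CPM at low and 170.3, 161.2 and 166.1 CPM at high nitrate. In B73 and ZmNRL1-OE the libraries of the nitrate levels overlapped, whereas the low-nitrate libraries of zmnrl1-m all lay above its high-nitrate libraries, by means of 165 and 162 CPM. Its highest library was 1.07-fold above its lowest, and it was the single gene of the 100 with a ratio under 1.1. The CV expected from counting reads alone was 1.41% at its depth of 5187 counts per library, which is 60.45% of its squared CV.

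Zm00001d041186 came next in steadiness, with 277.6 ± 7.77 CPM (SD, n = 18) and a CV of 2.80%. Its group means lay between 273.8 ± 2.118 and 284.2 ± 13.3 CPM (SD, n = 3). The wider spread was that of zmnrl1-m at low nitrate, with 287.3, 269.7 and 295.7 CPM. Zm00001d014761, at 55.9 ± 1.57 CPM and a CV of 2.81%, was close to the limit of the counting in CPM scaled by library totals. The CV expected from counting alone was 2.42%, or 73.9% of its squared CV. Zm00001d044313 had 81.05 ± 2.56 CPM and a CV of 3.16%, and Zm00001d004466 had 100.4 ± 3.19 CPM and a CV of 3.18%. Zm00001d002945, Zm00001d025027, Zm00001d037326, Zm00001d051838 and Zm00001d049680 completed the 10 lowest, with CVs from 3.34% to 3.49%.

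**Figure D2:**
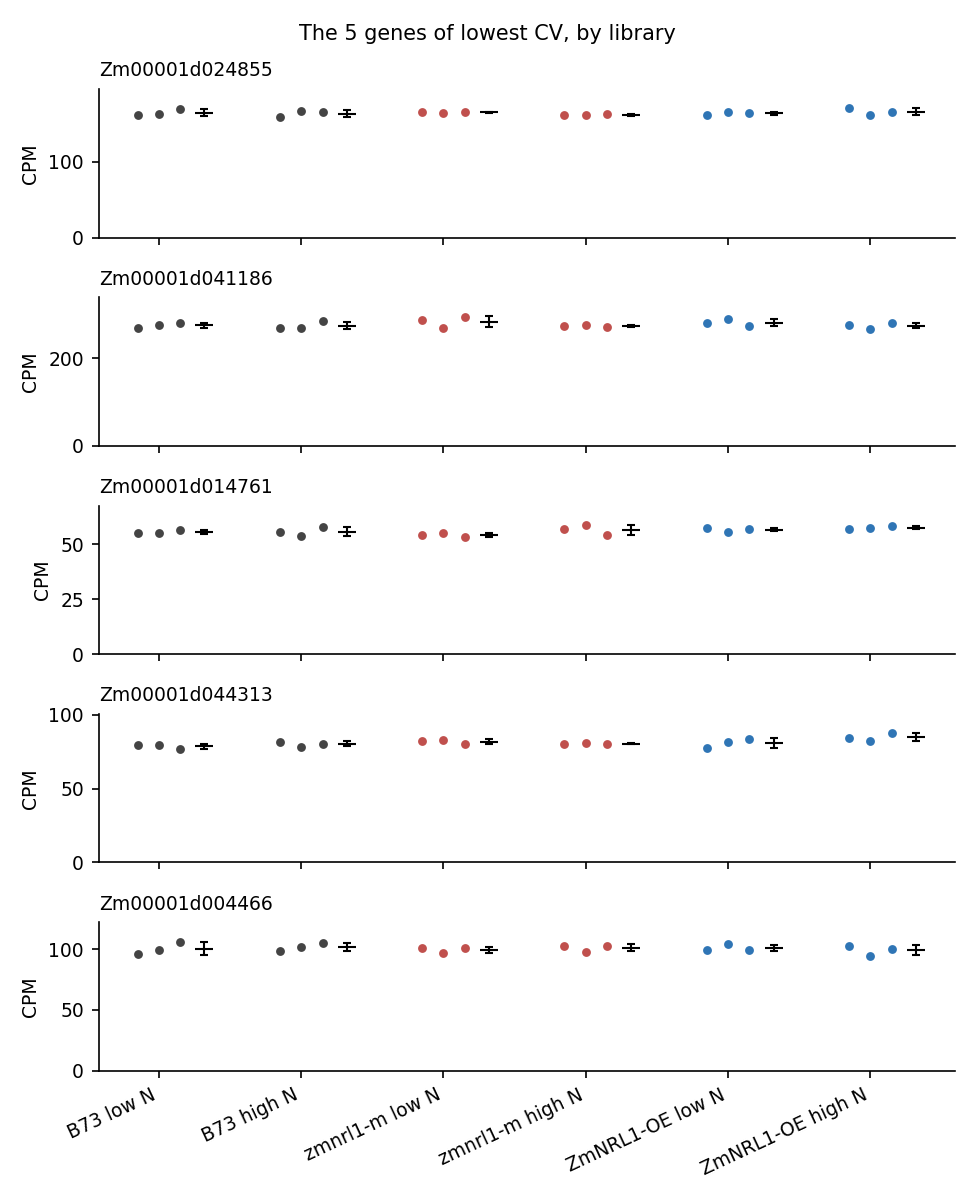
CPM (y, from 0) of the 5 genes of lowest CV in each of the 18 libraries, by group (x), with the mean and SD of the 3 libraries of a group beside the points in black. In Zm00001d024855, the top panel, all 18 libraries lie between 158.7 and 170.3 CPM.

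The 100 genes covered the lower part of the range of levels, since the other genes at the level minimum reached a mean of 1795 CPM. Mean CPM ran from 50.1 in Zm00001d028088, at the level minimum, to 361 in Zm00001d011087, with a median of 89.6 against 83.1 in the other genes at the level minimum. The 5343 genes were split by mean CPM into 4 bins of 1335 or 1336 genes, and from the lowest to the highest bin they held 20, 21, 32 and 27 of the 100 genes. Zm00001d011087, at 361 CPM, and Zm00001d011086, at 313 CPM, were the most abundant of the 100 by CPM. They have consecutive identifiers, and whether they share reads as similar copies was not analysed here. Per length, the level ran from 5.33 FPKM in Zm00001d025027 to 283 FPKM in Zm00001d036151, with a median of 23.2 FPKM against 33.1 FPKM in the other genes. Of the 100 genes of highest mean FPKM, 0 had a CV under that of the last gene chosen, so leaving them out did not alter the choice.

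The 100 genes had a longer median implied length than the other genes at the level minimum, which were not matched to them by level. The length of a gene was taken as that implied by the ratio of its count to its FPKM. The choice by CPM did not use this measure. This implied length may be that of a transcript or of the whole gene, which the labels do not state. Its median was 4554 bases in the 100 genes, with quartiles at 2503 and 6479, and 2698 bases in the other 5243 genes, with quartiles at 1636 and 4833. Of 4 bins of the 5343 genes by length, the longest, from 4865 bases upwards, held 46 of the 100 genes, and the shortest, up to 1649 bases, held 11. Among all genes at the level minimum the median CV was 19.7% in the shortest bin, then 16.3% and 14.0%, and 11.2% in the longest bin, so the order of the CV by length was not limited to the 100 genes. Zm00001d003879 was the longest of the 100 with 11180 bases, and Zm00001d036151 the shortest with 436 bases. Genes are not independent of each other, and this description across them was given no test. The median CV expected from counting was 1.91% in the 100 genes and 1.98% in the others, and the part of length in the CV was not tested.

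The remaining spread of the 100 genes was divided into a part within groups and a part between group means. The choice limited the CV over all 18 libraries and with it both parts, so these values are a description. The median CV within groups, pooled over the 6 groups, was 3.76%, and the median CV of the 6 group means was 3.09%. The spread within groups would by itself give means of 3 libraries a median CV of 2.17%. The CV of the group means exceeded the CV within groups in 32 of the 100 genes, and in 4603 (87.8%) of the other 5243 genes, where the medians were 14.1% between group means, 8.27% within groups and 4.78% for means of 3 from the spread within groups alone. Counting alone would give a median CV of 1.91% in the 100 genes, and its share of the squared CV had a median of 19.85% (range 4.05% to 73.9%) against 1.54% in the other genes. Within single groups of 3 libraries the median CV of the 100 genes was 4.17% in B73 at low nitrate and between 2.87% and 3.19% in the remaining 5 groups, and that of the other genes lay between 6.74% and 7.74%. B73 at low nitrate was also the highest of the 6 groups in the other genes.

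The small differences that remained were shared by replicates to a degree. After each gene was centred on its own mean, log2 CPM over the 100 genes correlated between libraries of a group with a median r of 0.27, between the nitrate levels of a genotype with 0.0041, and between genotypes with -0.13. In the other genes these medians were 0.87, 0.52 and -0.39. The library most like a given one was of its own group in 17 of 18 cases for the 100 genes and in all 18 for the others. The first principal component held 19.7% of the variance in the 100 genes and 45.2% in the others. These values describe correlations across genes within these libraries.

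With library totals, no group was the highest or the lowest for most of the 100 genes. The highest group mean was that of zmnrl1-m at low nitrate in 24 genes, of ZmNRL1-OE at high nitrate in 20 and at low nitrate in 16, of B73 at high nitrate in 14, and of B73 at low nitrate and zmnrl1-m at high nitrate in 13 each. The lowest group mean was that of B73 at low nitrate in 29 genes and at high nitrate in 22, of ZmNRL1-OE in 18 at low and 8 at high nitrate, and of zmnrl1-m in 13 and 10. Between its lowest and highest group mean a gene of the 100 differed by 1.02-fold to 1.149-fold, with a median of 1.09-fold. With TMM, 94 of the 100 genes had a fitted fold change below 0 in ZmNRL1-OE against B73 at low nitrate, and 87 in ZmNRL1-OE at low against high nitrate, where with library totals 44 and 61 did.

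Other scalings of the libraries gave other values of the CV. The genes were taken for a low CV with library totals, so a higher CV under another scaling follows in part from the choice. With TMM, the trimmed mean of M-values, which scales libraries so that most genes do not change, the median CV of the 100 genes was 5.54%, and 89 of the 100 genes had a higher CV than with library totals. The same held for 3066 (58.5%) of the other 5243 genes. The lowest CV of any of the 100 genes was 3.48% with TMM and 3.33% with DESeq2 size factors, where it was 1.82% with library totals. The CVs and counting shares given above for Zm00001d024855 and Zm00001d014761 hold for library totals. TMM factors were 1.04, 1.07 and 1.05 in ZmNRL1-OE at low nitrate and 0.962, 0.999 and 0.956 in zmnrl1-m at low nitrate, and in the other groups they ran from 0.969 to 1.03. With library totals, the median gene of the 100 deviated from its own mean by -0.034 to 0.027 (log2) in the 18 libraries. With TMM the range was -0.089 to 0.074, and just 9, 6 and 9 of the 100 genes stood above their own mean in the libraries of ZmNRL1-OE at low nitrate, where 84, 58 and 82 did in those of zmnrl1-m at low nitrate. The choice made with TMM in place of library totals took 38 of the 100 genes again, and the choice made with the size factors of DESeq2 took 48. All 38 were taken under both scalings. The choice made with FPKM took all 100 again, which is no separate check, since FPKM divides CPM by a fixed length per gene.

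**Figure D3:**
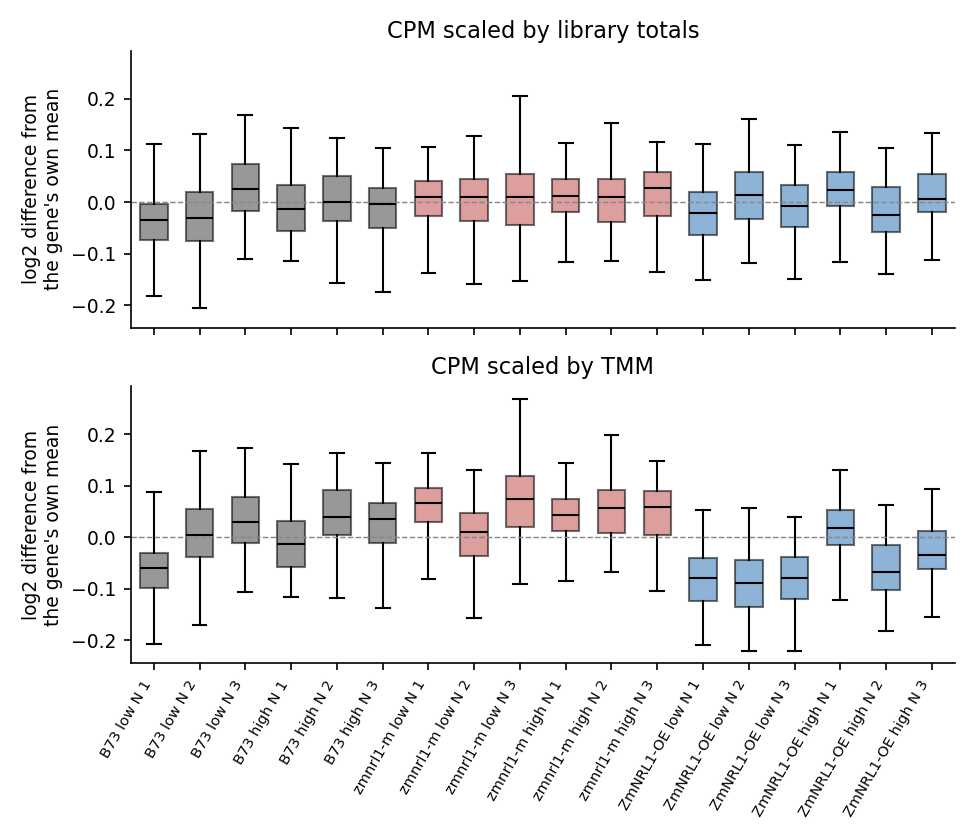
Log2 difference of each of the 100 genes from its own mean (y) in each of the 18 libraries (x), with CPM scaled by library totals (top) or by TMM (bottom). Boxes show the quartiles and median over the 100 genes and whiskers the full range, in grey for B73, red for zmnrl1-m and blue for ZmNRL1-OE. With TMM the 3 ZmNRL1-OE libraries at low nitrate have medians of -0.080, -0.089 and -0.079 and the zmnrl1-m libraries medians of 0.011 to 0.074.

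The contrasts of the study were fitted to all 27134 genes that passed a filter on low counts, with edgeR's quasi-likelihood test, TMM and adjusted p under 0.05 (Benjamini-Hochberg) as a call. The 100 genes all passed the filter. The choice used the same libraries, so few calls among the 100 genes follow from it, and the counts are given beside the share of all tested genes without further reading. Any difference among the 6 groups was called in 21 of the 100 genes, where 81.5% of all tested genes were called. It was called in 2 of them with library totals, the scaling that chose the genes (80.1% of all tested genes), and in 36 with DESeq2 (80.3%). At an unadjusted p under 0.05 there were 26 (82.8%). Without a single library of ZmNRL1-OE the count was 7, 7 or 2 (low-nitrate replicates 1, 2 and 3) and 11, 11 or 8 (high-nitrate replicates 1, 2 and 3), and without any single library of B73 or zmnrl1-m it stayed between 14 and 23.

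Low against high nitrate was called in 0 of the 100 genes in B73 (14.7% of all tested genes), in 0 in zmnrl1-m (17.9%) and in 2 in ZmNRL1-OE (23.9%). At an unadjusted p under 0.05 there were 5, 2 and 10 of the 100 genes (30.7%, 31.2% and 36.6% of all tested genes), and DESeq2 called 4, 1 and 3 (19.1%, 20.4% and 27.9%). Leaving out replicate 3 of zmnrl1-m at low nitrate gave 1 call in B73. In ZmNRL1-OE the 2 calls became 0, 1 and 0 without its low-nitrate replicates 1, 2 and 3, and 0, 2 and 0 when those at high nitrate were left out in the same order. They became 1 without low-nitrate replicate 2 of B73, any of its high-nitrate libraries, any low-nitrate library of zmnrl1-m or high-nitrate replicate 3 of zmnrl1-m, and stayed at 2 without each remaining library. As ratios of group mean CPM, the median size of the log2 difference, regardless of sign, was 0.044, 0.045 and 0.038 in the 100 genes (B73, zmnrl1-m, ZmNRL1-OE). In the other genes at the level minimum it was 0.17, 0.16 and 0.19. In the fit, the median size of the log2 fold change was 0.047, 0.044 and 0.061 in the 100 genes. Over all tested genes, which include less abundant ones, it was 0.21, 0.21 and 0.24. The bounds of the 95% confidence intervals of the 100 log2 fold changes ran from -0.3016 to 0.2649 in B73. They ran from -0.2582 to 0.2665 in zmnrl1-m and from -0.3262 to 0.2031 in ZmNRL1-OE. A miss of the threshold does not show that a gene was equal at both nitrate levels.

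Zm00001d031938 had the largest fall at low nitrate in ZmNRL1-OE. It stood at 98.1, 95.7 and 101.2 CPM at high nitrate and at 87.7, 90.85 and 88.3 CPM at low nitrate, with no overlap. The fitted log2 fold change was -0.19 ± 0.05 (SE) with TMM. In B73 its mean was 95.1 ± 2.235 CPM with high nitrate and 88.3 ± 2.21 CPM with low nitrate, and in zmnrl1-m 94.35 ± 4.09 and 88.6 ± 1.52 CPM (SD, n = 3), so its mean was lower at low nitrate in each genotype, without a call in B73 and zmnrl1-m. It was called in ZmNRL1-OE in 18 of 23 alternative settings, but not with library totals, where 0 of the 100 genes were called in this contrast. The other called gene had a log2 fold change of -0.19 ± 0.06 (SE) and was called in 6 of 23.

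Between lines and B73, 6 of the 100 genes were called for zmnrl1-m at low nitrate (5 higher and 1 lower in zmnrl1-m, 44.8% of all tested genes called), 2 for zmnrl1-m at high nitrate (both higher, 42.4%), 8 for ZmNRL1-OE at low nitrate (all lower, 34.8%) and 0 for ZmNRL1-OE at high nitrate (27.2%). In the same order, 14, 6, 19 and 8 of the 100 genes had an unadjusted p under 0.05 (51.6%, 49.9%, 43.9% and 37.4% of all tested genes). DESeq2 called 12, 7, 4 and 4 (42%, 40.2%, 32.4% and 27.2%). The directions moved with the scaling. With library totals the counts were 1 (lower), 1 (higher), 0 and 1 (higher) in the same order, where 44.1%, 41.8%, 33.6% and 27.4% of all tested genes were called. For ZmNRL1-OE against B73 the 100 genes had a median log2 fold change of -0.075 at low and -0.039 at high nitrate with TMM, and 0.0084 and 0.017 with library totals. That of all tested genes was -0.030 and -0.0015 with TMM, and 0.047 and 0.050 with library totals. The 8 calls for ZmNRL1-OE at low nitrate became 1 or 0 without any single library of ZmNRL1-OE, at either nitrate level. Without low-nitrate replicates 1, 2 and 3 of B73 they became 16, 1 and 3, and without any single library of B73 at high nitrate or of zmnrl1-m between 4 and 6. For zmnrl1-m at low nitrate, 6 calls became 2, 0 and 8 without low-nitrate replicates 1, 2 and 3 of B73, and 3, 6 and 0 without those of zmnrl1-m. They became 4 when any high-nitrate library of zmnrl1-m was left out, between 4 and 6 without 1 high-nitrate library of B73, 3, 4 and 3 without low-nitrate replicates 1, 2 and 3 of ZmNRL1-OE, and 2, 3 and 2 without its high-nitrate replicates 1, 2 and 3. For zmnrl1-m at high nitrate, 2 calls became 1 when any of its own high-nitrate libraries, or replicate 1 or 3 of B73 at high nitrate, was left out. For ZmNRL1-OE at high nitrate, 0 calls became 3, 1 and 1 without low-nitrate replicates 1, 2 and 3 of B73. Contrasts at one nitrate level share the libraries of B73.

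**Figure D4:**
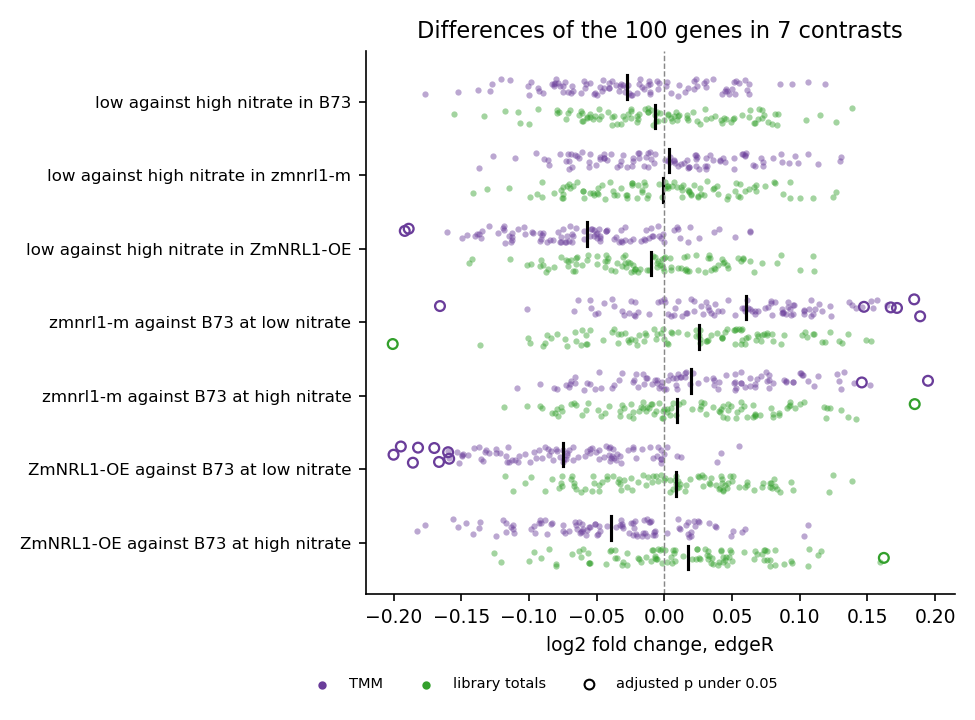
Log2 fold change (x) of each of the 100 genes in the 7 contrasts (y), fitted by edgeR with TMM (purple) or with library totals (green). Vertical bars are medians over the 100 genes, and open circles are genes with an adjusted p under 0.05. All values run from -0.2007 to 0.1947. The purple medians for ZmNRL1-OE against B73 lie at -0.075 and -0.039 where the green ones lie at 0.0084 and 0.017.

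Zm00001d009520 was the gene of the 100 whose call held in all 23 alternative settings. In zmnrl1-m at high nitrate it stood at 63.2, 61.2 and 63.3 CPM, and in B73 at 54.4, 54.5 and 56.3 CPM, with no overlap. The fitted log2 fold change was 0.19 ± 0.05 (SE) with TMM. At low nitrate it stood at 60.01 ± 0.625 CPM in zmnrl1-m and 57.05 ± 1.60 CPM in B73, and in ZmNRL1-OE at 58.7 ± 1.72 and 58.0 ± 0.702 CPM at low and high nitrate (SD, n = 3). Its CV within groups was 2.08%, and that of its group means 4.40%. Zm00001d007951, the last gene taken, was lower in zmnrl1-m than in B73 at low nitrate, with 80.6, 78.9 and 77.7 CPM against 90.7, 92.9 and 89.1 CPM. Its log2 fold change was -0.17 ± 0.06 (SE) with TMM, called in 19 of 23 settings. At high nitrate it stood at 87.2 ± 3.99 CPM in zmnrl1-m and 86.6 ± 1.14 CPM in B73.

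Zm00001d053003 had the largest fall in ZmNRL1-OE against B73 at low nitrate. It stood at 220.5, 230.7 and 227.6 CPM in ZmNRL1-OE and at 250.8, 236.6 and 249.2 CPM in B73. The libraries did not overlap, and the log2 fold change was -0.20 ± 0.06 (SE) with TMM, called in 19 of 23 settings, and -0.12 ± 0.06 with library totals, not called. Zm00001d020157 was higher in zmnrl1-m than in B73 at high nitrate, with 69.2, 69.7 and 67.1 CPM against 63.9, 63.5 and 60.1 CPM. Its log2 fold change of 0.15 ± 0.05 (SE, with TMM) was called in 15 of 23 settings. Zm00001d020157 was also the gene called for ZmNRL1-OE at high nitrate with library totals.

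Libraries of 2 groups that do not overlap were found among the 100 genes in each contrast. In CPM, all 3 libraries of one group lay above all 3 of the other for nitrate in 19 genes in B73, in 22 in zmnrl1-m and in 16 in ZmNRL1-OE, where 39.3%, 42.7% and 48.5% of the other genes at the level minimum did so. For zmnrl1-m against B73 the numbers were 19 at low (52.6% of the other genes) and 24 at high nitrate (53.4%), and for ZmNRL1-OE against B73 15 (47.4%) and 25 (41.8%). Zm00001d015570, which had the largest fitted fall at low nitrate in B73, was such a gene in every genotype. It stood at 95.02, 87.5 and 97.3 CPM at low and 102.7, 105.5 and 103.5 CPM at high nitrate in B73. In zmnrl1-m its means were 93.6 ± 3.20 and 98.6 ± 0.540 CPM, and in ZmNRL1-OE 93.8 ± 1.44 and 98.25 ± 2.40 CPM (SD, n = 3).

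Whether a line responded to nitrate differently from B73 was an interaction term of the same fit. It was called in 0 of the 100 genes for zmnrl1-m (8.93% of all tested genes) and in 0 for ZmNRL1-OE (0.0479%). At an unadjusted p under 0.05 there were 1 and 2 of the 100 genes (29% and 6.08% of all tested genes), and DESeq2 called 0 in both (16.8% and 0.386%).

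To read steadiness in libraries that did not choose the genes, the choice was repeated without all 6 libraries of one genotype, and the chosen 100 genes were then read in the genotype left out. Without B73 the 100 genes chosen had a median CV of 3.59% in the 12 libraries used and of 5.17% in the 6 of B73, where the other genes at the level minimum had 10.7%. Without zmnrl1-m the CV was 3.78% in the libraries used and 4.56% in those of zmnrl1-m, where the other genes had 10.2%. Without ZmNRL1-OE it was 3.92% and 4.88%, where the other genes had 10.9%. In the libraries not used, 99, 92 and 100 of the 100 chosen genes lay in the lower part of the ranking, below the median CV of all genes at the level minimum, and 48, 43 and 40 lay in the lowest 10%. The CV of the chosen genes was thus higher in libraries that had not been used, and it remained below that of most other genes. The median CV of the other genes was instead lower there than in the libraries used, where it was 14.7%, 13.7% and 13.4% without B73, zmnrl1-m and ZmNRL1-OE. The libraries used were 12 from 2 genotypes and those left out 6 from 1 genotype, so the 2 CVs are unlike measures.

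The same reading was made with all 6 libraries of one replicate number left out, which keeps every group in the choice. The chosen 100 genes had a median CV of 5.14%, 5.37% and 5.23% in the libraries numbered 1, 2 and 3, where the other genes had 15.3%, 15.9% and 16.1%. All 100 lay below the median in each case, and 72, 82 and 81 lay in the lowest 10%. Differences between the same groups had already entered the choice, so these low CVs are in part built in. The counts are unlike those with a genotype left out.

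**Figure D5:**
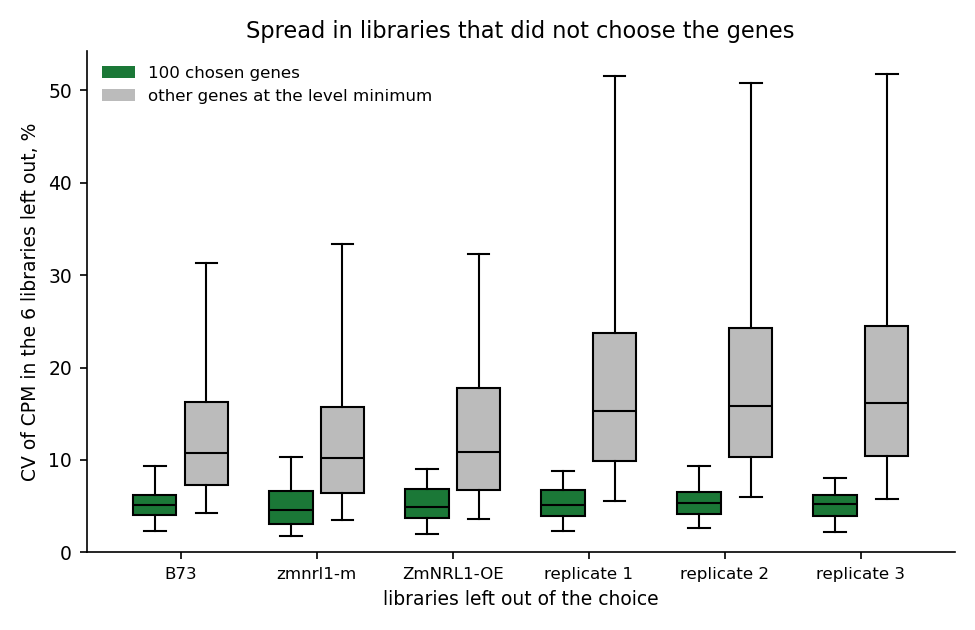
CV of CPM in percent (y) in the 6 libraries left out of the choice (x, a genotype or a replicate number) for the 100 genes chosen on the other 12 libraries (green) and the other genes at the level minimum (grey). Boxes show quartiles and medians, and whiskers run from the 5th to the 95th percentile. The green medians lie between 4.56% and 5.37%, and the grey ones between 10.2% and 16.1%.

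The nitrate response of the genotype left out is a measure that did not enter the choice, and it was tested on its 6 libraries alone with edgeR over all genes. Of the 100 genes chosen without B73, 0 were called for nitrate in B73 (14% of all 24990 tested genes and 15.9% of the other genes at the level minimum were called). Of those chosen without ZmNRL1-OE, 0 were called in ZmNRL1-OE (19.6% and 26.9%), and of those chosen without zmnrl1-m, 2 were called in zmnrl1-m (15.6% and 17.3%). At an unadjusted p under 0.05 there were 1, 11 and 18 of the 100 genes in B73, ZmNRL1-OE and zmnrl1-m (30.6%, 36.4% and 31.6% of all tested genes), and DESeq2 called 0, 1 and 3 (16.9%, 23.7% and 17.8%). The median size of the log2 fold change was 0.048 in B73, 0.077 in ZmNRL1-OE and 0.070 in zmnrl1-m, against 0.17, 0.20 and 0.16 in the other genes at the level minimum. With the spread estimated from all 18 libraries, which includes those that chose the genes, the calls were 1, 12 and 12 in that order, where 14.7%, 23.9% and 17.9% of all tested genes and 19%, 34% and 21.2% of the other genes at the level minimum were called. With 1 library left out there were 1 in B73 (without low-nitrate replicate 1), 3 and 1 in ZmNRL1-OE (without low-nitrate and high-nitrate replicate 2), and 1 or 0 in zmnrl1-m.

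The genes called in zmnrl1-m are not among the 100 chosen on all libraries. Zm00001d027427 stood at 68.1, 79.8 and 87.6 CPM at low nitrate and at 100.8, 100.6 and 101.2 CPM at high nitrate in zmnrl1-m, a log2 fold change of -0.36 with an edgeR adjusted p of 0.046. Its 6 libraries of B73 lay between 81.7 and 89.3 CPM and those of ZmNRL1-OE between 77.6 and 84.0 CPM. Zm00001d004785 stood at 61.1, 60.7 and 65.3 CPM at low and at 50.7, 52.1 and 53.4 CPM at high nitrate in zmnrl1-m, a log2 fold change of 0.26 with an edgeR adjusted p of 0.0456, and between 48.3 and 53.8 CPM in the libraries of B73 and ZmNRL1-OE. Both calls were lost with the replicate number as a block. In the fit of all 18 libraries the nitrate response of zmnrl1-m minus that of B73 was -0.40 ± 0.11 (log2, SE, edgeR adjusted p 0.0367) for Zm00001d027427 and 0.38 ± 0.09 (adjusted p 0.0211) for Zm00001d004785. That for ZmNRL1-OE was -0.06 ± 0.11 (adjusted p 0.996) and 0.08 ± 0.09 (adjusted p 0.966). These genes were taken for evenness in B73 and ZmNRL1-OE and for their call in zmnrl1-m, so the differences are not independent of how they were picked.

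A gene even in 2 genotypes could stand at another level in the one left out. The largest such shift was that of Zm00001d000436, which was chosen without zmnrl1-m. It stood at 57.9 ± 1.79 CPM in B73 and 55.9 ± 1.81 CPM in ZmNRL1-OE, and at 29.6 ± 2.52 CPM in zmnrl1-m (SD, n = 6). Its highest library of zmnrl1-m, at 32.7 CPM, lay below all 12 others. Zm00001d006771, chosen without ZmNRL1-OE, stood at 58.3 ± 1.58 CPM in B73, 60.01 ± 2.92 CPM in zmnrl1-m and 43.0 ± 1.88 CPM in ZmNRL1-OE. Zm00001d045967, chosen without B73, stood at 44.65 ± 1.30 CPM in B73, 55.05 ± 1.40 CPM in zmnrl1-m and between 52.9 and 59.3 CPM in the 6 libraries of ZmNRL1-OE. Over all genes chosen without a genotype, the median size of the log2 ratio of the mean in the libraries left out to that in the libraries used was 0.065 for B73, 0.080 for zmnrl1-m and 0.054 for ZmNRL1-OE, against 0.14, 0.16 and 0.17 in the other genes.

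The repeated choices took 59 of the 100 genes without B73, 49 without zmnrl1-m and 51 without ZmNRL1-OE, and 66, 72 and 75 without the libraries numbered 1, 2 and 3. Each of the 100 genes was taken by at least 1 of these 6 choices, and 20 were taken by all 6. With 1 library left out at a time, between 82 and 95 were taken again, and 70 were taken in all 18 cases. Choices that leave out libraries share most of them with the choice on all 18, so many genes being taken again is in part built in. A core of 13 genes was taken in all 6 choices, with TMM, with DESeq2 size factors and in all 18 cases with 1 library left out. The 5 of these with the lowest CV were Zm00001d024855, Zm00001d041186, Zm00001d014761, Zm00001d044313 and Zm00001d004466, the same 5 genes that had the lowest CV of the 100. Of the 8 genes called lower in ZmNRL1-OE than in B73 at low nitrate with TMM, Zm00001d002945 and Zm00001d048470 are also in the core. Their log2 fold changes were -0.16 ± 0.05 and -0.17 ± 0.06 (SE). They were called in 11 and 9 of 23 alternative settings, and the smallest changes over these were -0.078 and -0.088.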

How the data were processed

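RNA-seq libraries from maize roots were read from the deposited tables. Per the submitters' processing notes, the tools included featureCounts 2.0.1, HISAT2 2.2.1 and Trim Galore 1.18, and the build was B73 RefGen_v4. The authors deposited raw read counts per gene, and they also deposited FPKM values per gene, whose scaling is not described further. How strand was handled, and how reads shared by similar genes were counted, is not stated in the labels. CPM were computed from the counts and the column totals with Python 3.11.15 and pandas 2.3.3. Depth lay between 21905877 and 39003607 counts, and the CV expected from counting was taken as that of a Poisson variable, which covers counting error only.

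The contrasts were fitted in R 4.3.3 with edgeR 4.0.16 (quasi-likelihood test, TMM, filterByExpr with a minimum count of 10, 6 group means over 18 libraries) and Benjamini-Hochberg adjustment over all tested genes, and again with DESeq2 1.42.0. The edgeR fit and the choice of genes by CV were tested on simulated data, and the DESeq2 fit was not. The genes and tests were chosen with earlier results of these data known. Named genes are those of lowest CV, those at the edge of the choice, those of highest or lowest level, the longest and shortest, and those with the largest fitted rise or fall per contrast. Zm00001d020157, as a gene called at high nitrate in zmnrl1-m, Zm00001d048470 and the genes named from choices without a genotype were named after their values were seen. The interaction contrasts and the nitrate tests in the genotype left out, with their alternatives, were likewise added after seeing the data. No pair of libraries of a group agreed within sampling noise (chi-square per degree of freedom 7.795 to 25.58).

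Deviations of same-numbered libraries correlated by 0.41, 0.12 and 0.26 between the nitrate levels of B73, over the limit of 0.1 for calling them paired, and in no other contrast did all 3 pass it. With the replicate block, 0 of the 100 genes were called for nitrate in B73.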

Additional observations from a re-analysis of the deposited data

How the results depend on the processing

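Counts of the 100 genes called are given here for nitrate (B73, then zmnrl1-m, then ZmNRL1-OE), then zmnrl1-m against B73 at low and high nitrate, then ZmNRL1-OE against B73 at low and high nitrate, then any difference. With library totals they were 0, 0, 0, 1, 1, 0, 1 and 2. With DESeq2 size factors in edgeR they were 0, 0, 1, 4, 2, 1, 0 and 12, and with no filter on low counts 0, 0, 1, 1, 1, 2, 0 and 13. With DESeq2 they were 4, 1, 3, 12, 7, 4, 4 and 36. With 1 library left out they ranged over 0 to 1, 0 to 0, 0 to 2, 0 to 8, 1 to 2, 0 to 16, 0 to 3 and 2 to 23. The interactions had 0 calls under every alternative run.

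With the replicate block the counts were 0, 0, 1, 3, 1, 3, 0 and 14. Outside the nitrate contrast of B73 the libraries share only a number.

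The median CV of the 100 genes was 5.54% with TMM and 5.27% with DESeq2 size factors, 4.38% in FPKM and 4.28% to 4.43% with 1 library left out. The choice took 38 genes again with TMM, 48 with DESeq2 size factors, 65 with a minimum of 20 CPM and 39 with 100 CPM. It took 59, 49 and 51 without B73, zmnrl1-m and ZmNRL1-OE, 66 without the libraries numbered 1, and 82 to 95 with 1 library left out.

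Of the genes chosen without a genotype, those called for its nitrate response (B73, zmnrl1-m, ZmNRL1-OE) were 1, 12 and 12 with all 18 libraries in the fit, and 0, 3 and 1 with DESeq2. In zmnrl1-m there was 1 with no filter and 0 with the replicate block. With 1 library left out they ranged over 0 to 1, 0 to 1 and 0 to 3.

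Over the 100 genes, the median log2 fold change for nitrate in zmnrl1-m turned from 0.0034 to -0.000714 with library totals, -0.00478 with DESeq2 size factors and -0.00431 with DESeq2, and lay between -0.00908 and 0.019 when single libraries were left out. For ZmNRL1-OE against B73 it turned to 0.00843 at low and 0.0173 at high nitrate with library totals. The fits with TMM and with library totals differed in their library factors. Mean TMM factors were 1.055 in ZmNRL1-OE and 0.9966 in B73 at low nitrate, and 1.021 and 0.9823 at high nitrate. Why the factors differed between groups, and why values moved when single libraries were left out, was not tested. At 50 CPM counting alone gives a CV of up to 2.56% in the 100 genes, which limits how steady a gene can appear.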
